A study of Mus musculus with 7 samples.

Results

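The genes described here are 38 immediate early and dissociation stress genes, taken from a fixed list of symbols, of 18194 genes that the arrays measured with a probe of their own. Each was read from 1 probe, the brightest on average across the 7 arrays among those annotated to that symbol alone. All 38 had such a probe, and all 38 were among the 14454 genes that passed the filter on dim probes. The samples were EGFP-positive cells sorted from mouse gliomas that had been passaged through NOD/SCID hosts. The glioma cells were of C57/Bl6 background and overexpressed PDGF-B together with EGFP from a bicistronic transcript. Secondary gliomas (n = 4) grew from grafted cells of early onset, low grade primary gliomas, and tertiary gliomas (n = 3) grew from a further graft of secondary glioma cells. Both groups shared the transgene, the host strain, dissociation with trypsin and by pipette, and the flow sort. NOD/SCID mice lack functional B and T lymphocytes but keep myeloid cells. The labels call the samples biological replicates without naming the primary tumour, donor or host of each, or an age, so p-values measure the spread between these samples, which may be smaller than that between independent tumours.

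Immediate early genes are transcribed within minutes of a stimulus without new protein synthesis, because their regulators are already present and are activated by kinases. Serum response factor acts on the CArG box, CREB acts on the cAMP response element, and heat shock factor acts on the heat shock element. The products include transcription factors (AP-1, Egr, Klf, Nr4a) and proteins that end the response, such as phosphatases and mRNA decay factors. Enzymatic dissociation of brain tissue is known to induce many of them, in microglia as well as in neural cells, so their level in sorted cells can reflect handling as well as the living tissue.

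Promoter sequences from RefSeq (GRCm38.p6) were found for 31 of the 38 genes, in 39 windows of 300 bases that run from 250 before to 50 after a transcription start. The windows of Egr2 (5) and Maff (3) overlap or belong to alternative starts. The bases before the start of Hspa1a and Hspa1b, which encode the inducible Hsp70 chaperone, are shown whole because both genes fell and are close copies of each other. The heat shock element (GAANNTTC) is in capitals, 104 bases before each start.
Hspa1a, chr17:34972157-34972406, minus strand: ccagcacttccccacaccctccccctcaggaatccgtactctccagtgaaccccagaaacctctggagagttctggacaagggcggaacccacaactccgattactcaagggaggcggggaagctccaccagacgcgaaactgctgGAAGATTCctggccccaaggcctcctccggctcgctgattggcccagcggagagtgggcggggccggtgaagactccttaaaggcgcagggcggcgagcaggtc
Hspa1b, chr17:34959239-34959488, minus strand: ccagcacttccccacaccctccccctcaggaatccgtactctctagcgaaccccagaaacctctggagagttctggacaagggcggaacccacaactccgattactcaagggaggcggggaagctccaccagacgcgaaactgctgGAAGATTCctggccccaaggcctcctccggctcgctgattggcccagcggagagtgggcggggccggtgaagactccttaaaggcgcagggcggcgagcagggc
The windows of this pair differed at 4 of 300 bases, which is 98.7% identity.

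Shorter stretches are shown for genes of the other families that the results turn on, with the motif in capitals. Zfp36 and Egr2 carry a CArG box, and the Zfp36 stretch also holds an Egr site (GCGGGGGCG).
Zfp36, chr7:28379247-28379338, minus strand: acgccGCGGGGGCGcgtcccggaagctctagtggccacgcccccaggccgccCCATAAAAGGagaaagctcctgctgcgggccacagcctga
Egr2, chr10:67537772-67537831, plus strand: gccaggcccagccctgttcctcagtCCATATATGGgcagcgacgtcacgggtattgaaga
The full cAMP response element (TGACGTCA) was found in 4 genes, Maff, Dusp1, Btg2 and Ppp1r15a, of which the first 3 fell.
Maff, chr15:79347466-79347519, plus strand: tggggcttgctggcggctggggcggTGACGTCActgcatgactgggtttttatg
Dusp1, chr17:26508583-26508640, minus strand: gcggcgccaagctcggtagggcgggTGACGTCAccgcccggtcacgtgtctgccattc
Btg2, chr1:134079289-134079346, minus strand: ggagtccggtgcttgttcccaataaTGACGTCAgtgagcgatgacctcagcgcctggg
Ppp1r15a, chr7:45526269-45526305, minus strand: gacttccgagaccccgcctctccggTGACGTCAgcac
Atf3, the gene with the largest fall, and Fos, which did not pass the test, each hold the core of this element (TGACG, on either strand).
Atf3, chr1:191183334-191183365, minus strand: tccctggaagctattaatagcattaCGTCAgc
Fos, chr12:85473799-85473853, plus strand: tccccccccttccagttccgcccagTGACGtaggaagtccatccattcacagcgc
Klf2 and Fosb, which fell, and Nr4a1, which did not pass, hold the Egr site, in Nr4a1 on the opposite strand.
Klf2, chr8:72318838-72318896, plus strand: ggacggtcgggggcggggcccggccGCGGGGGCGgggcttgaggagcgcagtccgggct
Fosb, chr7:19310062-19310120, minus strand: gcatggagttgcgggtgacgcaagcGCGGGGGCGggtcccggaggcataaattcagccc
Nr4a1, chr15:101266761-101266819, plus strand: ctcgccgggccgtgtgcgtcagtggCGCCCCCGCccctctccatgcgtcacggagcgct

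Over both strands, the cAMP response element was in 10.3% of the 39 windows of these genes and in 1.79% of 32851 windows of all genes in the table. Its core was in 53.8% against 20.8%, and 4 of the 18 genes with the core had the full element. The CArG box was in 12.8% against 1.63%, but in 2 genes only, since several Egr2 windows overlap. The Egr site GCGGGGGCG was in 20.5% (8 genes) against 2.91%, and its variant GCGTGGGCG was in 1 gene, Maff, at 2.56% of windows against 0.612%. The heat shock element was in 15.4% (Fosl2, Hspa1a, Hspa1b, Hsph1 and Jun) against 7.86%. The AP-1 site TGACTCA was in 0 of the 39 windows, and in 5.20% of all windows. Such matches describe letters in these windows and were not tested as binding sites.

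Array medians ran from 5.57 to 5.64 on the log2 scale, and precision is limited by having 7 arrays. Markers of oligodendrocyte precursors and glioma cells were present in every sample at a mean log2 level between 9.60 and 10.17, and 1 of 8 changed (Pdgfb, lower). Pdgfb was at 6.56, 7.34, 7.61 and 7.22 in secondary gliomas 1 to 4. In tertiary gliomas 1 to 3 it was at 5.52, 5.31 and 5.71 (-1.67 ± 0.25, limma adjusted p = 0.00571), near the array medians. Whether its probe reads the PDGF-B transgene was not tested. The mean of 19 markers of microglia and macrophages ran from 10.12 to 11.01 in secondary gliomas and from 5.99 to 6.84 in tertiary gliomas, and 19 of 19 were lower (median -4.19 on the log2 scale). None of the 19 lay below the dim filter on all arrays. Cx3cr1, the fractalkine receptor of microglia, was at 10.21, 10.53, 11.31 and 10.50 in secondary gliomas 1 to 4 and at 6.48, 6.05 and 5.24 in tertiary gliomas 1 to 3. All 3 tested markers of granulocytes and monocytes were also lower (median -3.45). So were 2 of 5 of pericytes (median -0.39) and 2 of 5 of mature oligodendrocytes (median -2.06). All 5 of mature oligodendrocytes were lower at an unadjusted p under 0.05 by limma. Of lymphocyte markers 0 of 5 changed, with 0 at an unadjusted p under 0.05 by limma. None of 6 astrocyte, 7 endothelial and 4 neuron markers tested was called (medians -0.54, -0.40 and 0.01). At an unadjusted p under 0.05 by limma 2 astrocyte and 3 endothelial markers were lower, and 1 endothelial marker was higher. Of all genes tested 11.7% were lower and 12.1% higher at that threshold. Mean levels of lymphocyte (4.13 to 4.37), endothelial (4.56 to 5.11) and neuron markers (5.08 to 5.58) lay near or below the array medians, where changes are hard to see. In sorted bulk samples, fewer cells of a type and less RNA per cell cannot be told apart. The part of these other cells in the differences below was not tested.

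Of the 38 genes, 14 were lower and 0 were higher in tertiary than in secondary gliomas. The test was limma across all 14454 genes, with an adjusted p under 0.05 after Benjamini-Hochberg adjustment. At an unadjusted p under 0.05 there were 29 lower and 0 higher, where 11.7% of all genes tested were lower and 12.1% higher. The 14 genes are 36.8% of the 38, where 6.33% of all genes tested were called lower and 1.04% higher. Atf3 had the largest fall and Btg1, 1.62-fold lower, the smallest. The median log2 fold change over the 38 was -0.96, against 0.09 over all genes tested, and 32 of the 38 (84.2%) had a fold change below 0, against 39.3% of all. In 24 of the 38 (63.2%) every tertiary value lay below every secondary value, as in 11.2% of all genes tested, and in none of the 38 did the tertiary values lie above. The call held for 6 genes, Atf3, Klf2, Hspa1a, Zfp36, Dusp1 and Btg2, whichever 1 of the 7 samples was dropped and under 11 other settings. Those settings included the looser threshold of an adjusted p under 0.10, at which no call could be lost.

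**Figure D1:**
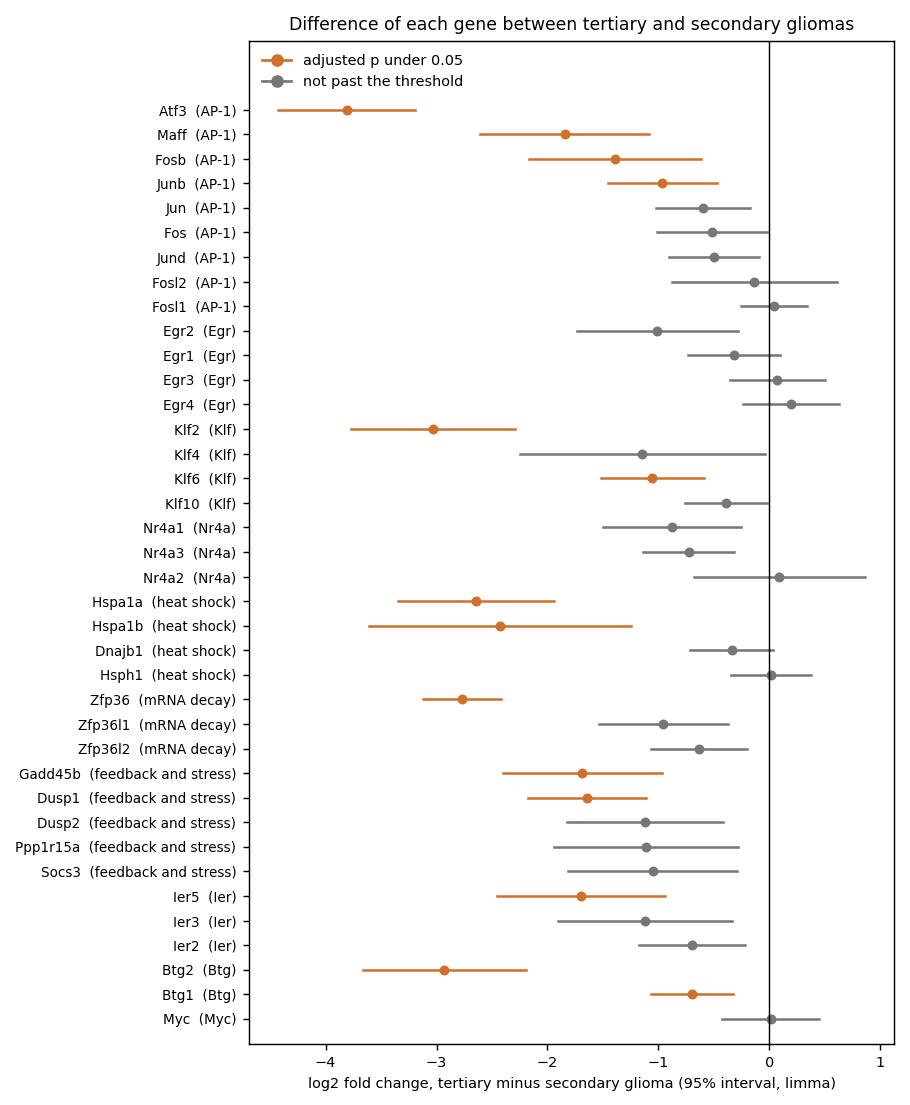
Log2 fold change (tertiary minus secondary, x axis) of each of the 38 genes with its 95% interval from limma, ordered within families. Orange marks the 14 genes with an adjusted p under 0.05, all to the left of 0, from Atf3 at -3.81 to Btg1 at -0.70, and grey marks the 24 that did not pass.

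AP-1 is a dimer of Fos and Jun proteins, and related leucine zipper proteins (Atf3, Maff) pair with them or compete for their sites. Of these 9 genes 4 fell, Atf3, Maff, Fosb and Junb, and the median log2 fold change was -0.60. Atf3, a stress-induced repressor, had log2 levels of 10.00, 10.00, 11.04 and 10.10 in secondary gliomas 1 to 4 and of 6.47, 6.52 and 6.42 in tertiary gliomas 1 to 3. The groups lay far apart and the tertiary values differed by no more than 0.10, and the log2 fold change was -3.81 ± 0.26 (SE, 4 against 3 samples, limma adjusted p = 0.000116). Maff, a small Maf protein without a transactivation domain, was at 8.93, 8.98, 10.15 and 9.73 in secondary and at 7.24, 7.70 and 7.87 in tertiary gliomas (-1.84 ± 0.33, adjusted p = 0.0136). Fosb was at 9.72, 9.43, 10.83 and 9.96 and then at 8.98, 8.30 and 8.51 (-1.39 ± 0.33, adjusted p = 0.0476). Junb, which can restrain Jun, was at 6.34, 6.66, 7.12 and 6.69 and then at 5.65, 5.53 and 6.02 (-0.96 ± 0.21, adjusted p = 0.0336). None of these 4 had overlapping groups, and secondary glioma 3 was the highest of all 7 samples in each. Both held for all 14 genes that fell. Of all genes tested, every tertiary value lay below every secondary value in 11.2%, and secondary glioma 3 was the highest in 20.3%.

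The remaining AP-1 genes did not pass the test. Fos itself, the classic immediate early gene, was at 11.26, 11.07, 11.79 and 11.51 in secondary and at 10.93, 10.58 and 11.15 in tertiary gliomas. Its groups overlapped, and its log2 fold change of -0.52 had a 95% interval from -1.02 to -0.02 (adjusted p = 0.197). Jun was at 11.47, 11.39, 11.98 and 11.50 and then at 11.02, 10.78 and 11.16, a fold change of -0.60 (interval -1.02 to -0.17, adjusted p = 0.104), and Jund, the most constant of the Jun proteins, was at 11.22, 10.90, 11.45 and 11.04 and then at 10.88, 10.50 and 10.59 (-0.50, interval -0.90 to -0.09, adjusted p = 0.140). On the chosen probes of Jun and Jund the groups did not overlap, while on the further probe of each they did. Fosl2 was at 7.80, 7.997, 8.55 and 8.22 and then at 7.59, 8.78 and 7.64, with tertiary glioma 2 above every secondary glioma (-0.14, interval -0.88 to 0.61). Fosl1, a Fos-related factor of invasive tumours, stayed between 4.73 and 5.02 on all 7 arrays (0.04, interval -0.26 to 0.34). Markers of microglia and macrophages (median -4.19), granulocytes and monocytes (-3.45) and mature oligodendrocytes (-2.06) moved in the direction of the 4 AP-1 genes that fell. The part of these cells was not tested.

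Calls of 3 of the 4 AP-1 genes lay near the threshold and were lost in some fits that left out 1 sample. For Fosb, dropping secondary glioma 1 or 4 raised the adjusted p to 0.0732 or 0.104, and dropping tertiary glioma 2 or 3 raised it to 0.170 or 0.147. For Junb it was 0.0806, 0.0543 or 0.0836 with secondary glioma 2, 3 or 4 dropped and 0.0575 or 0.130 with tertiary glioma 1 or 2 dropped. Maff had 0.0508 without tertiary glioma 2. Fosb was also at 0.0642 with no dim filter and at 0.0523 after median centring. A block for the replicate number also ended the calls of Fosb and Junb.

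**Figure D2:**
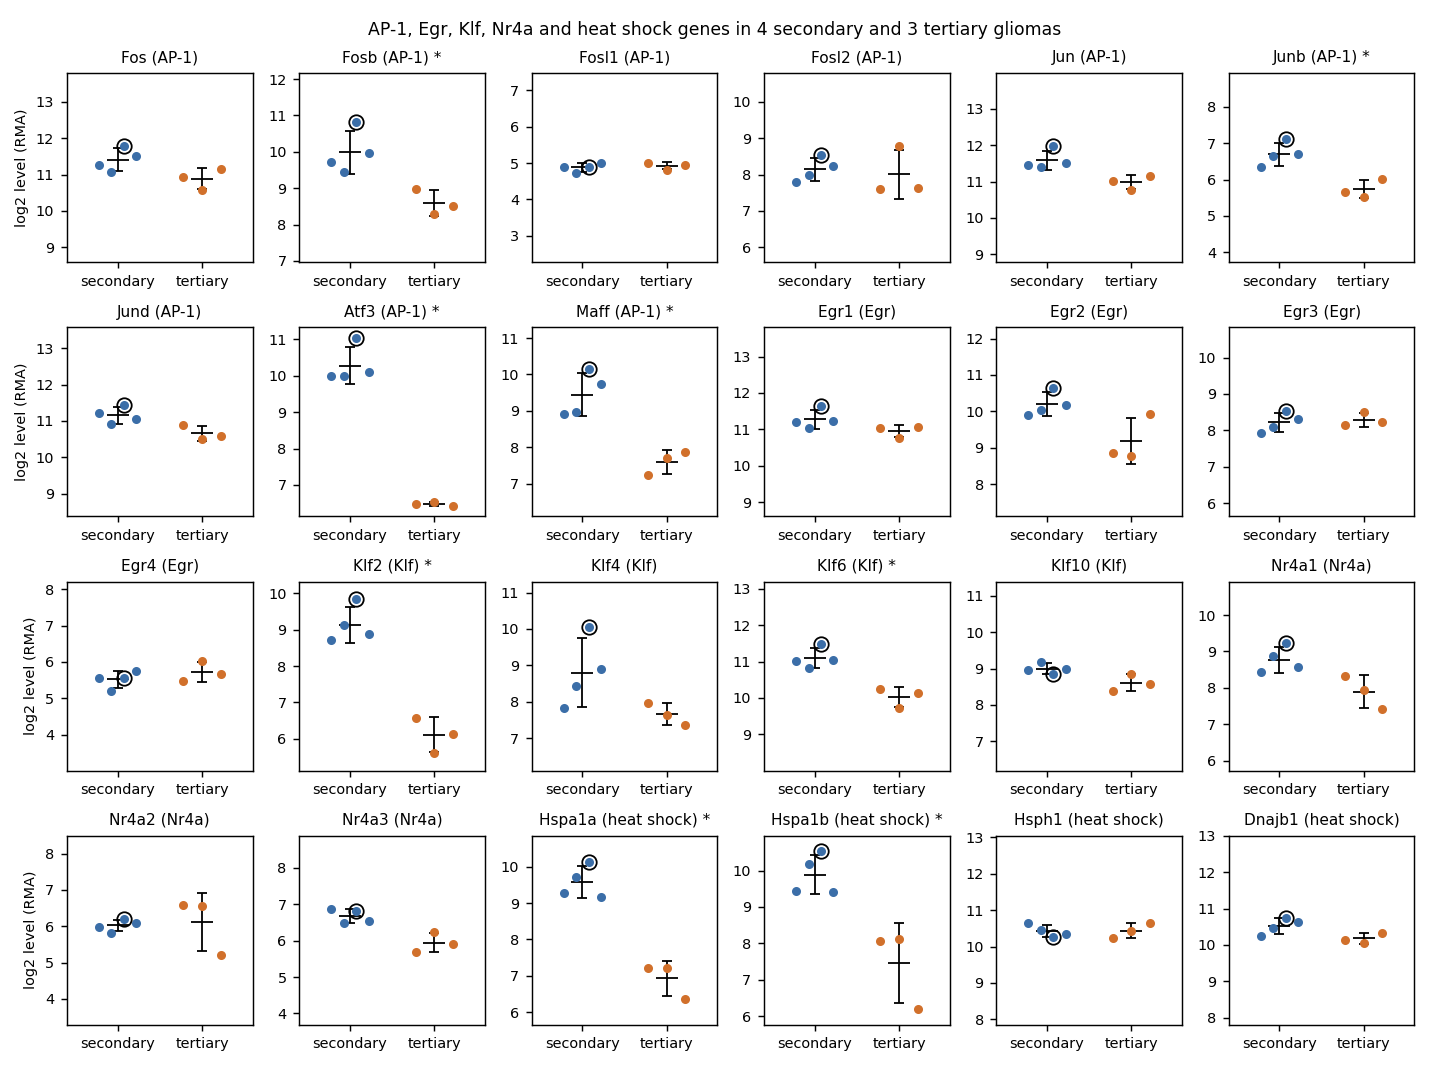
Log2 level (RMA, y axis, 5.2 units in each panel) of the 24 AP-1, Egr, Klf, Nr4a and heat shock genes in 4 secondary (blue) and 3 tertiary (orange) gliomas, with the mean and SD in black. A black ring marks secondary glioma 3 and an asterisk marks the 8 genes with an adjusted p under 0.05; Atf3, Klf2 and Hspa1a show the widest gaps between groups, while Fos, Egr1 and Hsph1 overlap.

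The Egr genes encode zinc finger factors induced by serum response factor, and none of the 4 was called. At an unadjusted p under 0.05 only Egr2 was lower, against 11.7% of all genes tested. Egr1, which is switched on by nearly every growth signal, was at 11.20, 11.03, 11.64 and 11.22 in secondary gliomas and at 11.03, 10.76 and 11.07 in tertiary gliomas. The ranges overlapped, and the fold change of -0.32 had an interval of -0.73 to 0.09 (adjusted p = 0.317), and became -0.20 with secondary glioma 3 dropped. Egr2, known for its role in myelinating cells and the hindbrain, was at 9.90, 10.02, 10.66 and 10.18 and then at 8.86, 8.76 and 9.92. Tertiary glioma 3 alone reached the secondary range there: the log2 fold change was -1.01 ± 0.31 (adjusted p = 0.106) with it and -1.38 (adjusted p = 0.0213) without it. Egr3 was at 7.92, 8.08, 8.54 and 8.32 and then at 8.15, 8.49 and 8.22 (0.07, interval -0.35 to 0.50), and Egr4 was at 5.55, 5.21, 5.55 and 5.75 and then at 5.46, 6.01 and 5.66 (0.20, interval -0.24 to 0.63). Both differences were smaller than the spread within groups, and the median of the family was -0.12.

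Klf genes encode Krüppel-like zinc finger factors, and 2 of the 4 fell (median -1.10). Klf2, a factor of endothelial and immune cell quiescence, was at 8.70, 9.12, 9.84 and 8.89 in secondary and at 6.57, 5.61 and 6.14 in tertiary gliomas. Every tertiary value was more than 2 units below the lowest secondary value, and the log2 fold change was -3.03 ± 0.32 (adjusted p = 0.000873). Klf6 was at 11.01, 10.81, 11.48 and 11.05 and then at 10.25, 9.73 and 10.13 (-1.05 ± 0.20, adjusted p = 0.0187), and its other 4 probes lay between -1.14 and -1.38. Dropping secondary glioma 4 gave an adjusted p of 0.0521, and dropping tertiary glioma 2 or 3 gave 0.0718 or 0.0598. Klf4, a pluripotency factor, had the widest spread of the 38 genes among secondary gliomas, with values of 7.82, 8.42, 10.05 and 8.91 (SD 0.94) against 7.97, 7.63 and 7.36 in tertiary gliomas. The lowest secondary value lay inside the tertiary range, and the fold change was -1.14 ± 0.48 (adjusted p = 0.197), or -0.73 with secondary glioma 3 dropped. Klf10, an early target of TGF-beta, was at 8.97, 9.19, 8.85 and 8.99 and then at 8.40, 8.86 and 8.57 (-0.39, interval -0.76 to -0.03, adjusted p = 0.187). Klf2 and Klf6 fell beside markers of microglia and macrophages (median -4.19) and of other cell types, whose part was not tested.

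The Nr4a genes encode orphan nuclear receptors that need no ligand and are induced like Fos. None of the 3 was called, and 2 were lower at an unadjusted p under 0.05, as were 11.7% of all genes tested. Nr4a1 was at 8.43, 8.86, 9.23 and 8.57 in secondary and at 8.32, 7.95 and 7.41 in tertiary gliomas (-0.88 ± 0.27, adjusted p = 0.101), or at -1.09 (adjusted p = 0.0447) without tertiary glioma 1. Nr4a3 was at 6.87, 6.48, 6.83 and 6.53 and then at 5.70, 6.23 and 5.91 (-0.73 ± 0.18, adjusted p = 0.0506). Its groups did not overlap on the chosen probe, and averaging its 3 probes gave -0.69 with an adjusted p of 0.0369. Nr4a2, needed for dopamine neurons, was between 5.83 and 6.20 in secondary gliomas and at 6.57, 6.57 and 5.21 in tertiary gliomas, so that the tertiary samples lay on both sides (0.09, interval -0.68 to 0.86). Its 6 probes ran from -0.61 to 0.20, and none was called.

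Among the 4 heat shock genes the inducible Hsp70 pair fell, while their partners did not pass. The median of -1.38 lay in the gap between the pair and these partners, where no gene was. Hspa1a was at 9.28, 9.73, 10.13 and 9.17 in secondary gliomas and at 7.22, 7.21 and 6.37 in tertiary gliomas, a log2 fold change of -2.64 ± 0.30 (adjusted p = 0.00129). Hspa1b was at 9.45, 10.17, 10.52 and 9.42 and then at 8.07, 8.12 and 6.19 (-2.43 ± 0.51, adjusted p = 0.0280). Both probes gave their lowest value in tertiary glioma 3. The genes are near-identical copies, so each probe may read both, and the pair may count as 1 observation. Dropping secondary glioma 2, 3 or 4 moved the adjusted p of Hspa1b to 0.0783, 0.0775 or 0.0511. Dnajb1, the Hsp40 that hands substrates to Hsp70, was at 10.24, 10.47, 10.75 and 10.62 and then at 10.14, 10.06 and 10.34 (-0.34, interval -0.71 to 0.03, adjusted p = 0.243). Hsph1, the Hsp110 exchange factor of Hsp70, was at 10.65, 10.44, 10.27 and 10.34 and then at 10.24, 10.42 and 10.65, a difference smaller than the spread within groups (0.01, interval -0.35 to 0.37). Markers of microglia and macrophages (median -4.19) and of other cell types fell beside the Hsp70 pair, and their part was not tested.

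Of the 14 genes outside these families 6 fell: Zfp36, Dusp1, Gadd45b, Ier5, Btg1 and Btg2. Zfp36, which binds AU-rich elements and speeds the decay of cytokine and early mRNAs, was at 11.14, 11.23, 11.62 and 11.33 in secondary gliomas and at 8.46, 8.59 and 8.63 in tertiary gliomas. Both groups were tight, and with a log2 fold change of -2.77 ± 0.15 it had the lowest adjusted p of the 38 (7.93e-05). Its relatives Zfp36l1 (-0.96 ± 0.25, adjusted p = 0.0657) and Zfp36l2 (-0.63 ± 0.19, adjusted p = 0.0931) did not pass. On the chosen probe of both, every tertiary value lay below every secondary value. Averaging its probes moved Zfp36l2 to -0.40. Zfp36l1 had an adjusted p of 0.0211 without tertiary glioma 3. Dusp1, the nuclear phosphatase that switches off MAP kinases, was at 11.44, 11.49, 11.997 and 11.63 and then at 10.16, 9.52 and 10.32 (-1.64 ± 0.23, adjusted p = 0.00385). Dusp2, its relative of immune cells, ran from 5.96 to 7.11 and from 4.88 to 5.56 (-1.12 ± 0.30, adjusted p = 0.0708).

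Btg2, an antiproliferative gene that recruits the deadenylase, was at 8.91, 9.20, 10.22 and 9.20 in secondary and at 6.28, 6.28 and 6.81 in tertiary gliomas, a log2 fold change of -2.93 ± 0.32 (adjusted p = 0.000992). Its relative Btg1 was at 10.36, 10.34, 10.80 and 10.37 and then at 9.64, 9.80 and 9.86 (-0.70 ± 0.16, adjusted p = 0.0397). The Btg1 difference was the smallest of those called, and it was called in only 1 of the 7 fits that left out a sample, the one without secondary glioma 3. Dropping secondary glioma 1, 2 or 4 gave 0.0632, 0.0746 or 0.0797, and dropping tertiary glioma 1, 2 or 3 gave 0.0632, 0.115 or 0.0936. It was also 0.0876 with its probes averaged and 0.0529 after median centring. Gadd45b, a stress sensor upstream of p38 kinase, was at 8.35, 8.996, 9.81 and 9.11 and then at 7.55, 7.35 and 7.24 (-1.68 ± 0.31, adjusted p = 0.0159), with 0.0651 or 0.0696 if tertiary glioma 2 or 3 was dropped.

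Ier5, an early gene that acts on heat shock factor, was at 9.66, 10.01, 10.85 and 9.98 in secondary and at 7.86, 8.72 and 8.70 in tertiary gliomas (-1.70 ± 0.33, adjusted p = 0.0190). Its 3 probes disagreed in size, and the groups overlapped on both further probes (-0.26 and -0.90). The average of the 3 probes gave -0.95 (adjusted p = 0.0616), and dropping secondary glioma 2 gave the chosen probe 0.0509. Ier3, an inhibitor of apoptosis, ran from 9.55 to 10.74 and from 8.44 to 9.52 (-1.12 ± 0.34, adjusted p = 0.0999). Ier2 ran from 7.35 to 8.15 and from 6.88 to 7.02 (-0.70 ± 0.21, adjusted p = 0.0923), so that on the chosen probes of all 3 Ier genes the groups lay apart. Socs3, the feedback inhibitor of cytokine receptors, was at -1.05 ± 0.33 (adjusted p = 0.107). Its chosen probe can bind related transcripts, and the probe that carries no such mark gave -0.44 with overlapping groups (adjusted p = 0.525). Ppp1r15a, which restores translation after stress, was at -1.11 ± 0.36 (adjusted p = 0.117). Myc, an early gene with lasting roles in growth, ran from 9.05 to 9.58 in secondary and from 9.07 to 9.52 in tertiary gliomas (0.01, interval -0.42 to 0.44). The 6 genes of this mixed group that fell did so beside markers of microglia and macrophages (median -4.19) and of other cell types, whose part was not tested.

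**Figure D3:**
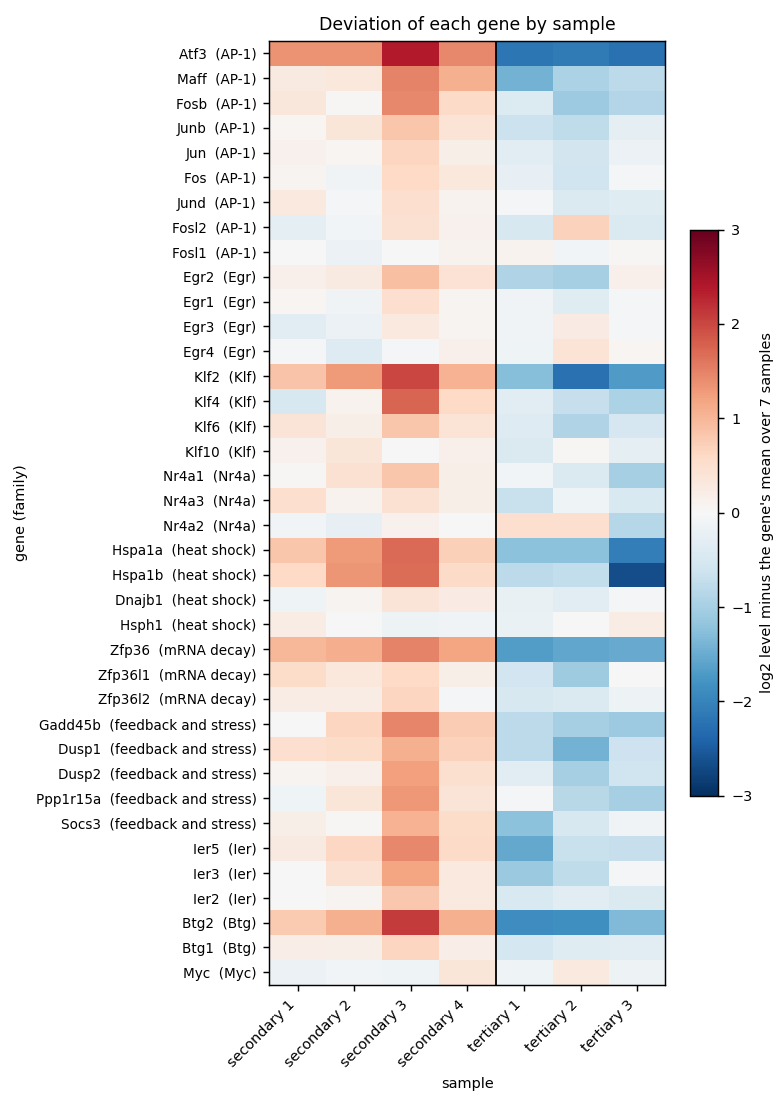
Log2 level of each of the 38 genes (rows, by family) in each of the 7 samples (columns), as the difference from the mean of that gene over the 7 samples. The column of secondary glioma 3 is the highest of the 7 samples in 30 of the 38 genes (20.3% of all genes tested), and the lowest sample is a tertiary glioma in 34 of them (40.1% of all genes tested).

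Secondary glioma 3 stood apart from the other secondary gliomas in these genes, though not in these alone. Over all genes tested it was the highest of the 7 samples in 20.3% and the lowest in 25.8%. The latter was the largest such share of any sample, while of the 38 genes 0 were lowest in it. It was the highest secondary glioma in 32 of the 38 genes (84.2%), as in 29.8% of all genes tested, and in all 14 that fell. Its value exceeded the mean of the other 3 by a median of 0.53 on the log2 scale over the 38, by 1.66 in Klf4, 1.12 in Fosb and Btg2 and 1.08 in Ppp1r15a, while the median over all genes tested was -0.01. The microglia and macrophage markers were higher in the same sample by a median of 0.54 and 6 granulocyte and monocyte markers, 3 of them below the dim filter on all arrays, by a median of 1.13. The 8 oligodendrocyte precursor and glioma markers differed there by a median of -0.37, and 5 of them had their lowest value of the 7 samples in it. The part of these cells was not tested. Without secondary glioma 3, 12 of the 14 genes kept their call, Junb and Hspa1b did not, and the median log2 fold change of the 38 was -0.78. Every tertiary value then lay below every secondary value in 25 genes, as in 11.8% of all genes tested with the same 6 samples. Leaving out a sample can only keep or raise this count, so the count cannot show whether the separation depends on secondary glioma 3.

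The mean level of the 38 genes was 9.02, 9.12, 9.71 and 9.22 in secondary gliomas 1 to 4 and 8.18, 8.16 and 8.19 in tertiary gliomas 1 to 3. Secondary gliomas thus differed among themselves by up to 0.69 while the tertiary means lay within 0.03 of each other. This did not hold in every family. The AP-1 mean spanned 0.74 in secondary and 0.09 in tertiary gliomas, the Klf mean 0.93 and 0.34, and the Egr mean 0.51 and 0.34. The Nr4a mean spanned 0.36 in secondary and 0.74 in tertiary gliomas, and the heat shock mean 0.53 and 0.56. Single genes showed the larger spread of secondary gliomas less clearly. The SD was larger in secondary than in tertiary gliomas in 23 of 38 genes (60.5%), against 48.3% of all genes tested. By family these were 8 of 9 AP-1, 2 of 4 Egr, 3 of 4 Klf, 0 of 3 Nr4a and 1 of 4 heat shock genes. The median SD was 0.32 in secondary and 0.28 in tertiary gliomas. The 14 genes that fell averaged 9.87 ± 0.41 (SD) in secondary and 7.82 ± 0.05 in tertiary gliomas, and the other 24 averaged 8.92 ± 0.25 and 8.38 ± 0.03. These averages describe sets split by the test itself and were not tested.

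**Figure D4:**
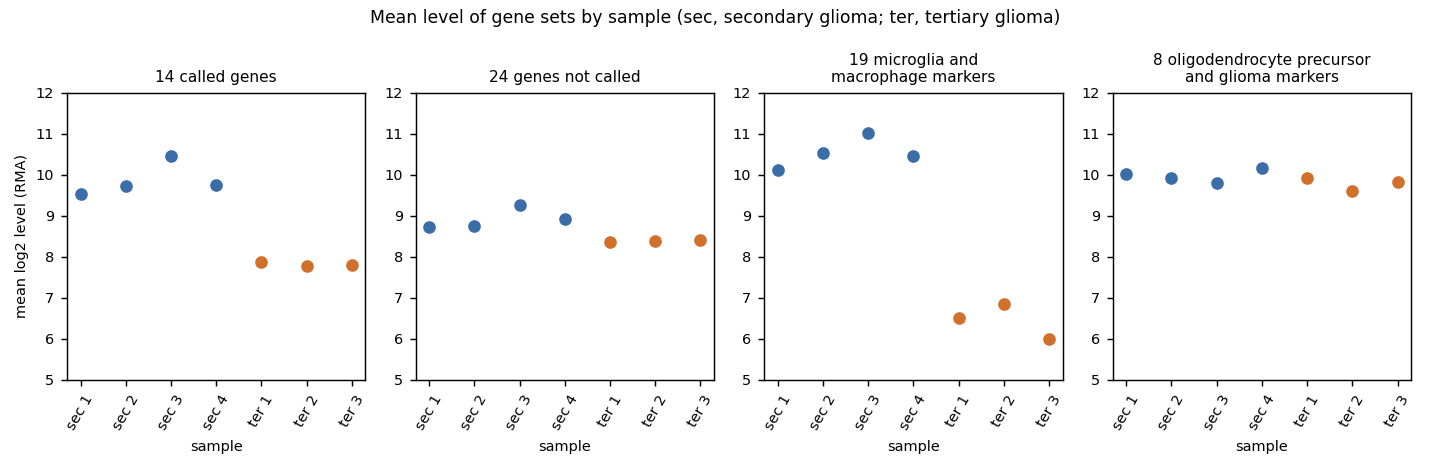
Mean log2 level (y axis) of the 14 genes that fell, the 24 that did not pass, 19 microglia and macrophage markers and 8 oligodendrocyte precursor and glioma markers in each sample (x axis). Secondary glioma 3 is the highest sample in the first 3 panels, at 10.46, 9.27 and 11.01, and in the last panel the samples lie between 9.60 and 10.17.

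Further probes were available for 20 of the 38 genes. Of 34 such probes, 30 had the sign of the chosen probe, and of the 13 that belong to genes called lower, 7 were themselves called when every probe was tested on its own. No probe of these genes was called higher, by limma over 27514 probes. The second Btg2 probe gave -2.36 and both further Gadd45b probes gave more than the chosen one, -2.20 and -2.14. The further Hspa1b probes gave -2.43 and -2.01.

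Genes of the same pathways outside the 38 were read from lists of 81 symbols, of which 72 matched a probe and were tested. Over all genes tested, 6.33% were called lower and 1.04% higher. Of the 23 other early and dissociation genes, 7 fell and 0 rose (median -0.45). Those with the lowest p were the NF-kappaB inhibitor Nfkbia (-2.11 ± 0.16, adjusted p = 0.000181), the ubiquitin editing enzyme Tnfaip3, which dampens NF-kappaB signalling (-3.07 ± 0.32, adjusted p = 0.000862) the nuclear I-kappaB family member Nfkbiz (-1.87 ± 0.25, adjusted p = 0.00283), and the kinase Sgk1 (-1.78 ± 0.22, adjusted p = 0.00197). Dropping any 1 sample left these 4 called. Of 12 other leucine zipper factors 3 fell (median -0.32). Maf, a factor of macrophages and lymphocytes, was at -3.72 ± 0.56 (adjusted p = 0.00601), or at -1.97 with its probes averaged. Nfe2l2, the regulator of the oxidant response, was at -1.69 ± 0.35 (adjusted p = 0.0256), which became 0.0735, 0.0580 or 0.0545 on dropping secondary glioma 2, 3 or 4 and 0.0778 on dropping tertiary glioma 3. Mafk, a partner of Nfe2l2, was at -1.05 ± 0.25 (adjusted p = 0.0485). Dropping any 1 sample other than tertiary glioma 1 ended this call (adjusted p from 0.0620 to 0.170), as did no dim filter (0.0623), quantile normalization (0.0565), median centring (0.0537) and a robust variance trend (0.0511).

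Upstream of these genes little passed the test. None of 14 kinases and factors that induce them was called (median 0.20). At an unadjusted p under 0.05 by limma 3 of the 14 were lower and 3 higher, where 11.7% of all genes tested were lower and 12.1% higher. Heat shock factor Hsf2 had the lowest p of the 14 (0.74 ± 0.22, adjusted p = 0.0972), or 0.97 with an adjusted p of 0.0174 without tertiary glioma 1. None of 9 other Klf genes was called by limma, with 0 lower and 1 higher at an unadjusted p under 0.05, and Klf7 was nearest (0.59 ± 0.17, adjusted p = 0.0934). Of 14 other heat shock genes 1 rose and 0 fell (median 0.15), where 1.04% of all genes tested were called higher and 6.33% lower. The one was Hspa9, the mitochondrial Hsp70, at 1.04 ± 0.21 (adjusted p = 0.0228), or at 0.61 (adjusted p = 0.0321) with its probes averaged. Dropping secondary glioma 1 or 4 gave an adjusted p of 0.0576 or 0.0510, and dropping tertiary glioma 2 or 3 gave 0.0865 or 0.0546.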

How the data were processed

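RNA of 7 samples was extracted with Trizol, amplified by a whole-transcriptome kit and biotin-labelled, per the labels' protocols. The authors deposited log2 expression values from RMA, per the submitters' processing notes, and the values themselves gave the log base. RMA equalises the distribution of probe signals between arrays, which hides any change common to most genes, and it compresses differences of dim probes. No batch could be examined from the values used.

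Of 45101 probes, 34958 had 1 gene symbol and were used. Genes with a probe mean under 3.99 (log2), the 25th percentile over probes, were not tested. Tertiary and secondary gliomas were compared with limma 3.58.1 in R 4.3.3 (lmFit and eBayes, no covariate), with Benjamini-Hochberg adjustment over all genes tested. The steps were tested on simulated data. At most 5.39% of probes had identical values in any pair of arrays. The members and lists were chosen with earlier results of these data known. Named are all 38 genes, and from each further list up to 4 called genes by lowest p, or else the 1 with the lowest p. Alternatives concerned the probe, the dim filter, normalization, the variance model, array weights, the threshold, a replicate block and each sample left out.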

Additional observations from a re-analysis of the deposited data

Results flagged for a closer look

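In 3 of the 38 genes, 1 of the 4 secondary gliomas lay far from the others, measured as its gap to the nearest sample over the range of the group, where chance flags about 1 in 20 groups. Secondary glioma 3 was that sample for Atf3 (11.04, ratio 0.904) and for Btg1 (10.80, ratio 0.936). Secondary glioma 4 was that sample for Myc (9.58, ratio 0.851).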

How the results depend on the processing

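Of the single genes, 32 of 38 kept the sign of their log2 fold change in every setting, and the other 6 changed sign in some. Of these 6, Fosl2 and Nr4a2 moved the furthest. Leaving out 1 sample gave ranges of -0.0313 to 0.181 for Egr3, -0.14 to 0.13 for Myc, -0.0108 to 0.0934 for Fosl1, -0.0943 to 0.112 for Hsph1, -0.53 to 0.0679 for Fosl2 and -0.14 to 0.55 for Nr4a2. With all probes averaged Fosl2 was at 0.0407 and Nr4a2 at -0.0935, and Nr4a2 was at -0.23 with probes that can bind related transcripts left out and at -0.18 with array weights. Myc was at -0.0233 after quantile normalization and at -0.0811 with array weights. The count of the 38 called lower was 8 to 13 with 1 sample left out (8 without tertiary glioma 2, 9 without secondary glioma 4), 19 with array weights and 20 at an adjusted p under 0.10. No setting called any of the 38 higher, and their median was -1.04 to -0.78 with 1 sample left out and -0.72 with array weights. Over all genes tested, the count called higher was 668 with array weights, 437 at an adjusted p under 0.10 and 27 to 781 with 1 sample left out, and the count called lower was 1265, 1185 and 610 to 1076 in the same order. Samples of the same replicate number did not deviate together (correlations of 0.0360, -0.14 and 0.0145 over genes), while pairs of unlike number ran from -0.24 to 0.27. With 4 and 3 arrays such correlations cannot show which secondary glioma each tertiary glioma came from. The labels do not say it either. With the replicate block, 9 of the 38, 575 genes lower and 61 higher were called, 8 of the 14 kept their call, and Hsph1 was at -0.0165. Fosl1 and Egr4 were not tested with a dim filter at the 50th percentile. With 4 and 3 arrays, a difference near 1 on the log2 scale could miss the threshold, as Egr2 and Ier3 did.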
